A study of Homo sapiens with 9 samples.

Results

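The BCL2 family genes BCL2, BCL2L1, BCL2L2, MCL1, BAX, BAK1, BID, BCL2L11, PMAIP1 and BBC3 were followed in 9 RNA-seq libraries. The 10 genes were taken by name from a table of 60642 gene names. The cells were SNU-398, an established human hepatocellular carcinoma line, labelled wild type and grown in RPMI1640 with fetal bovine serum. The overexpression control, called vector control here, had 3 libraries. EMX1-FL, the full-length isoform of the homeobox transcription factor EMX1, and EMX1-X1, an isoform with an alternative terminal exon, were stably overexpressed from lentivirus in 3 libraries each. All 3 groups had passed puromycin selection, and the study describes its replicates as biological without saying whether the libraries of a group came from separately infected cultures, so each p-value measures the spread between these libraries. The question was whether mRNA of the family differed between either isoform and the vector control, and between the isoforms.

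BCL2 family proteins decide whether the outer membrane of the mitochondrion stays intact. The anti-apoptotic members BCL2, BCL2L1 (BCL-XL), BCL2L2 (BCL-W) and MCL1 bind and restrain the effectors BAX and BAK1, which otherwise form pores that release cytochrome c. The BH3-only members BID, BCL2L11 (BIM), PMAIP1 (NOXA) and BBC3 (PUMA) carry the death signal to them. PMAIP1 binds mainly MCL1, and BAX, PMAIP1 and BBC3 are well-known p53 target genes. Hepatocytes are known to depend on MCL1 and BCL2L1 for survival.

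The libraries held 21562703 to 25197970 assigned read pairs. EMX1 itself was at 9.34, 9.99 and 12.9 CPM (read pairs scaled to library size) in the 3 vector control libraries, at 251, 135 and 145 CPM in EMX1-FL and at 145, 294 and 288 CPM in EMX1-X1. With EMX1-FL the log2 fold change of EMX1 was 4.04 ± 0.34 (SE; adjusted p = 0.00121, edgeR), and with EMX1-X1 it reached 4.50 ± 0.35 (adjusted p = 0.00047, edgeR). Of 5 hepatocyte markers TTR had no count in any library, HNF4A had 2 counts in total, and ALB, APOA1 and APOA2 stayed at or below 2.77 TPM (read pairs scaled to gene length and library size). Of the fetal liver or hepatoma markers AFP had no count, whereas GPC3 was at 14.5 to 26.7 TPM. The mesenchymal markers VIM, FN1 and CDH2 were at 703 to 1120, 33.1 to 62.5 and 9.18 to 18.1 TPM, and ZEB1 was at 0.202 to 1.28 TPM. Blood and endothelial markers were at or below 0.184 TPM. Along the first principal component, which held 39.6% of the variance, the libraries split into 5 and 4. Cluster A comprised EMX1-FL 2 and 3, EMX1-X1 1 and vector control 1 and 2. Cluster B comprised EMX1-FL 1, EMX1-X1 2 and 3 and vector control 3. Each cluster holds libraries of every group, but EMX1-X1 has 1 library in cluster A, and EMX1-FL and the vector control have 1 each in cluster B. The groups were not matched along this component within a cluster either. In cluster B, vector control 3 scored 17.9, against 47.9 for EMX1-FL 1 and 42.5 and 50.8 for EMX1-X1 2 and 3. In cluster A, EMX1-FL 2 and 3 scored -47.8 and -49.9, against -21.8 and -20.9 for the vector control and -18.6 for EMX1-X1. Differences within the clusters stand beside the results of some genes below and can rest on these single libraries. Neither they nor a cluster covariate remove the whole split.

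MCL1 was the leading member in these cells, and BAX was nearly uncounted. On the TPM scale, which allows for gene length, MCL1 (chr1:150574551-150579738) had 279 ± 35.6 TPM (SD, n = 3) in the vector control. BCL2L2 (chr14:23298790-23311759) followed with 91.1 ± 0.782 TPM, and BAK1 (chr6:33572547-33580293) with 68.8 ± 7.99 TPM. PMAIP1 (chr18:59899948-59904306) had 66.1 ± 16 TPM, and its vector control libraries overlapped with those of BAK1. BCL2L1 (chr20:31664452-31723989) was next with 34.9 ± 1.25 TPM, then BID (chr22:17734138-17774770) with 20.5 ± 3.87 TPM. The levels of BCL2L11 (chr2:111119378-111168445), 7.14 ± 0.508 TPM, and BBC3 (chr19:47220822-47232766), 6.3 ± 2.05 TPM, overlapped as well. BCL2 (chr18:63123346-63320128), the founding member, had 3.53 ± 0.405 TPM and was the lowest member above BAX. All positions are on hg38 and cover the whole gene. Every other pair of neighbours in this order was apart in all 3 vector control libraries. Other genes overlap 43% of the exon bases of BCL2L1 and 24.3% of those of BCL2L2. This can lower their TPM by an unknown amount, so their places in the order are less certain.

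Of the summed TPM of the 4 anti-apoptotic members, MCL1 made up 58.8% to 73.3% across the 9 libraries, BCL2L2 19.2% to 27.5%, BCL2L1 6.23% to 12.8% and BCL2 0.839% to 1.26%. The overlap with other genes can lower the shares of BCL2L2 and BCL2L1 and raise that of MCL1. The sum itself was 408 ± 34.1 TPM (SD, n = 3) in vector control cells, 414 ± 4.59 TPM with EMX1-FL and 412 ± 7.48 TPM with EMX1-X1, so that the group means lay closer together than the vector control libraries did.

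BAX (chr19:48954815-48961798), a core effector, had 9 read pairs in all 9 libraries together. Vector control 1, 2 and 3 held 0, 1 and 7 read pairs, EMX1-FL held 0 in each library, and EMX1-X1 held 0, 1 and 0. A count of 0 allows up to 3 counts, which was worth 0.156 to 0.208 TPM of BAX depending on the library, for counting error only. At that limit, or at its measured value where that was higher, BAX reached 0.164% to 0.467% of the TPM of BAK1, the other effector. BAX did not pass the filter on low counts, and both sides of each comparison were near this limit, so no fold change is given.

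The low count covered part of the neighbourhood of BAX. Within 60000 bases on each side lie 13 gene names, BAX included. NUCB1, on one side, held 538 to 1194 read pairs per library, and RUVBL2, on the other, held 847 to 2205. Between them, DHDH had 0 in every library, GYS1 had 111 to 217, and FTL, which encodes the ferritin light chain, had 10 to 63. FTH1, the ferritin heavy chain gene elsewhere in the genome, held 12343 to 26142 read pairs. The table lists 16 FTL pseudogene names, with 23 to 62 read pairs per library in all, and 24 FTH1 pseudogene names, with 56 to 93. BAX shares no exon base with another gene of the annotation. FTL and FTH1 were looked at after the BAX counts had been seen. Whether the cells lack BAX mRNA, or the reads were lost in mapping or counting, was not tested.

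The promoters were read because EMX1 is a homeodomain protein and such proteins bind sites with a TAAT core. RefSeq promoters (GRCh38.p14, 250 bases before to 50 after the start) were matched for 8 of the 10 members, and not for MCL1 and BCL2L2. TAAT on either strand was present in 50.2% of 35116 promoters of this length, and TAATTA, which contains TAAT on both strands, in 4.84%. TAAT matches fell in the promoters of BAX, PMAIP1 and BBC3 and in some, but not all, entries of BCL2L1 and BID, and TAATTA in 1 of the 5 BID entries. These letters are not in the windows of BCL2, BAK1 and BCL2L11. The shares over all promoters are per entry, so they cannot be set directly beside a count of genes. The stretches of 30 bases below show the match in BAX, which was nearly uncounted, in PMAIP1 and BBC3, whose values turn up in the comparisons, and the longer match in BID, each 5′ to 3′ on the strand of the gene with TAAT, its reverse complement ATTA or TAATTA in capitals.
BAX, plus strand, chr19:48954647-48954676: gataaatgaaggcATTAgagctgcgattgg
PMAIP1, plus strand, chr18:59899746-59899775: aggaagTAATttcggggccgagcgctctgc
BBC3, minus strand, chr19:47232869-47232898: acgtgagatatagATTAcctgcatctcttg
BID, minus strand, chr22:17774875-17774904: gttgatatccaaaTAATTAaagaataaaca
The matches began 215 bases before the start in BAX, 244 in PMAIP1, 218 in BBC3 and 226 in BID. The BAX window had 67.3% GC and 38 CpG dinucleotides, against medians of 58.7% and 14 over all promoters, whereas the BBC3 window had 48% GC and 5 CpG. A match is a run of letters and not a measured binding site.

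These are bulk libraries, in which fewer cells with a transcript and less of it per cell cannot be told apart. In the comparison of EMX1-FL with the vector control, no member passed the test. Of the 9 members that passed the filter on low counts, 0 reached an unadjusted p under 0.05 (edgeR quasi-likelihood test), against 5.8% of all 18574 genes tested. None reached the stricter mark that adds a log2 fold change of 1 or more in either direction (2.42% of all genes) or an adjusted p under 0.05 (0.07% of all genes). No member had its 3 EMX1-FL libraries all above or all below the 3 vector control libraries, which 10.5% of all genes did. The fold changes were above 0 for 5 members and below 0 for 4, with a median log2 fold change of 0.08 beside 0.04 for all genes. The 95% intervals of 8 members stayed between -0.65 and 0.80 on the log2 scale, and that of BBC3 went beyond 1. The count rested on EMX1-FL 1: without that library BCL2, BCL2L1 and PMAIP1 passed, 3 of 9 members beside 16.8% of all genes, and without EMX1-FL 2 BBC3 passed, beside 5.18% of all genes.

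In the comparison of EMX1-X1 with the vector control, BBC3 was the member that passed. It was 1 of 9 members at an unadjusted p under 0.05, against 8.11% of all genes, and it also met the fold mark, against 2.5% of all genes. With 9 members, the count was close to what these shares give. No member reached an adjusted p under 0.05 (0.00538% of all genes), and none had its libraries apart (14.7% of all genes). The median log2 fold change was 0.05, beside 0.01 for all genes, with 6 members above 0 and 3 below. The call was lost without vector control 2 or 3 and without EMX1-X1 2 or 3, each of which left 0 members. Intervals of the 8 other members lay between -0.74 and 0.80.

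EMX1-FL and EMX1-X1 did not differ in any member at an unadjusted p under 0.05, which 7.63% of all genes reached. No member met the fold mark either (1.42% of all genes), and 0% of all genes had an adjusted p under 0.05. Libraries of the isoforms overlapped for every member tested, against 8.38% of all genes whose libraries did not. Without EMX1-FL 1, BCL2L1, BCL2L2, PMAIP1 and BBC3 passed, 4 of 9 members beside 35.5% of all genes, and without EMX1-X1 1 or vector control 3 PMAIP1 passed, beside 20.2% and 7.01% of all genes. The 3 comparisons share their libraries, so their values are given side by side and not counted as independent.

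**Figure D1:**
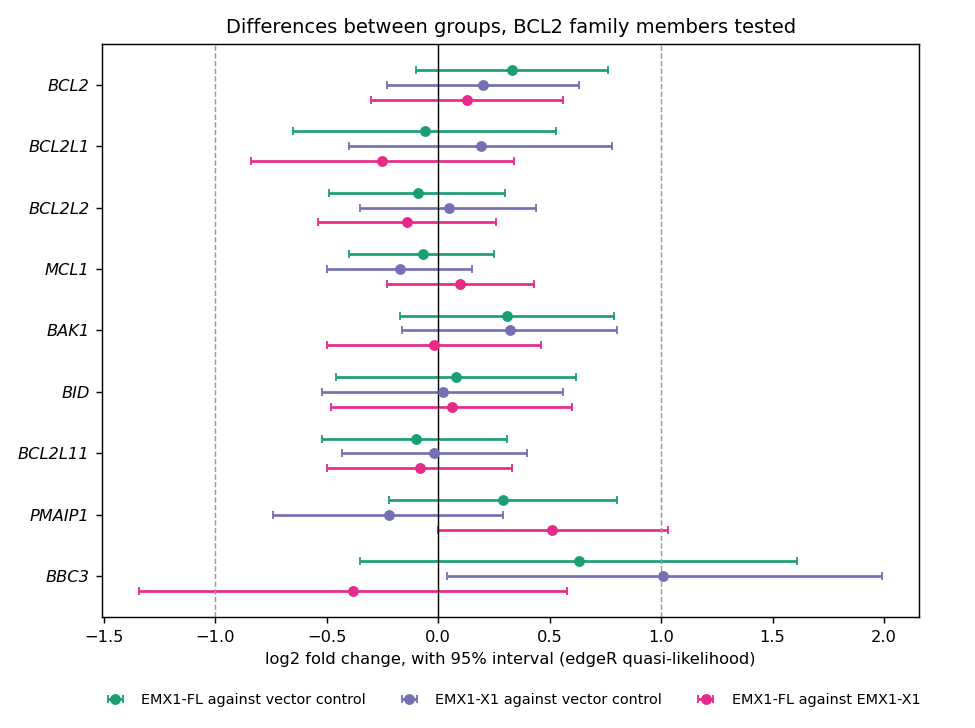
Log2 fold change (points) with its 95% interval (bars) of the 9 members tested, in each of the 3 comparisons, from the edgeR fit on all 9 libraries; dashed lines mark log2 fold changes of -1 and 1. The interval leaves 0 for BBC3 in EMX1-X1 (0.04 to 1.99) and for no other point.

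MCL1, the most abundant member, was at 370, 341 and 326 CPM in the vector control, 288, 361 and 338 CPM in EMX1-FL and 332, 293 and 296 CPM in EMX1-X1. EMX1-X1 2 and 3 and EMX1-FL 1 were below every vector control library, and the other libraries were not. The log2 fold change was -0.07 ± 0.15 (SE) with EMX1-FL (adjusted p = 0.997, edgeR) and -0.17 ± 0.15 with EMX1-X1 (adjusted p = 0.744, edgeR).

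BCL2L1 was at 30.4, 31.9 and 37 CPM in the vector control, 47.5, 23.3 and 24.5 CPM in EMX1-FL and 30, 40.4 and 42.6 CPM in EMX1-X1. Within EMX1-FL, library 1 was above and libraries 2 and 3 were below the whole vector control range. Its log2 fold change was -0.06 ± 0.27 with EMX1-FL and 0.19 ± 0.27 with EMX1-X1, and without EMX1-FL 1 the first became -0.47. In the count table, 43% of the exon bases of BCL2L1 overlap ABALON, and read pairs that touch both genes are not counted for either by default, which can lower its level by an unknown amount.

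BCL2L2 had 102, 107 and 118 CPM in the vector control, 129, 90.9 and 86.5 CPM in EMX1-FL and 105, 115 and 116 CPM in EMX1-X1. Here too EMX1-FL 1 lay above and EMX1-FL 2 and 3 below the vector control, while EMX1-X1 stayed inside its range. Its log2 fold change was -0.09 ± 0.18 with EMX1-FL and 0.05 ± 0.18 with EMX1-X1. Of its exon bases, 24.3% overlap other genes, among them the readthrough gene BCL2L2-PABPN1, which can lower its level as for BCL2L1.

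BCL2 had 12.6, 11.3 and 11.5 CPM in the vector control, 12, 16.5 and 15.8 CPM in EMX1-FL and 14.1, 15.1 and 11.4 CPM in EMX1-X1. In each isoform 2 libraries were above the vector control and 1 was inside its range. It was the member with the smallest p in EMX1-FL, with a log2 fold change of 0.33 ± 0.20, an unadjusted edgeR p = 0.124 and an exact permutation p = 0.2. Without EMX1-FL 1 the fold change of BCL2 was 0.46. The genes whose log2 CPM was most like that of BCL2 over the 9 libraries were RGS2 (Pearson r = 0.951), GPC6 (r = 0.944) and AL391834.1 (r = 0.935), with 42.8%, 42.8% and 26.8% GC beside 45.7% for BCL2.

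BAK1, the effector that was counted, was at 37.3, 41 and 52.8 CPM in the vector control, 69.2, 44.9 and 47.9 CPM in EMX1-FL and 45.5, 59 and 59.5 CPM in EMX1-X1. The means were higher with either isoform, but vector control 3 lay inside both ranges. Its log2 fold change was 0.31 ± 0.22 with EMX1-FL (adjusted p = 0.997, edgeR) and 0.32 ± 0.22 with EMX1-X1 (adjusted p = 0.692, edgeR). With the cluster as a covariate, the EMX1-FL difference of BAK1 was 0.30 ± 0.105 and passed an unadjusted p under 0.05, as 15.1% of all genes did in that fit, with an adjusted p = 0.201 (edgeR). The EMX1-X1 difference of 0.17 ± 0.109 did not pass (adjusted p = 0.545), and with an offset for GC content it was 0.04. Without EMX1-FL 1 the EMX1-FL difference was 0.09.

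Among the BH3-only genes, BBC3 had the widest spread. It was at 7.41, 4.71 and 4.82 CPM in the vector control, 15.5, 4.25 and 6.51 CPM in EMX1-FL and 6.28, 14.5 and 13.4 CPM in EMX1-X1. The 3 libraries at 13.4 CPM or more were the cluster B libraries with an EMX1 construct. These 3 also had the most EMX1 mRNA (251 to 294 CPM), counted per gene, which does not part the isoforms. The other 6 libraries lay at or below 7.41 CPM. With EMX1-X1 the log2 fold change was 1.01 ± 0.45 (SE), with an unadjusted edgeR p = 0.0434, adjusted p = 0.604 and an exact permutation p = 0.2 over the 6 libraries, where 0.1 is the smallest value possible. With EMX1-FL it was 0.63 ± 0.45 (adjusted p = 0.997, edgeR). Between the isoforms the log2 difference was -0.38 ± 0.44, and its interval ran from -1.34 to 0.58. That difference rested on single libraries, at -1.08 without EMX1-FL 1, where it passed an unadjusted p under 0.05 as 35.5% of all genes did, and at -0.06 without EMX1-FL 2. Within cluster A, EMX1-X1, with 1 library, lay 0.09 above and EMX1-FL lay -0.16 from the vector control on the log2 scale. Within cluster B, where the vector control and EMX1-FL had 1 library each, the same values were 1.51 and 1.67. Without EMX1-X1 2 or 3, or without vector control 2 or 3, the EMX1-X1 call was lost, with log2 fold changes between 0.80 and 1.30 over all single omissions. With the cluster as a covariate the EMX1-X1 difference was 0.58 ± 0.344 (adjusted p = 0.517, edgeR), and with an offset for GC content it was 0.49 ± 0.25 (adjusted p = 0.436, edgeR), neither past an unadjusted p under 0.05. EMX1 transcripts, at 62.8% GC, and those of BBC3, at 64.5%, were both GC-rich, so EMX1 dose and the split of the libraries cannot be told apart here.

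PMAIP1 was at 45.3, 47.2 and 32.6 CPM in the vector control, 37.8, 58.8 and 56.2 CPM in EMX1-FL and 44.4, 32 and 30.7 CPM in EMX1-X1. The isoforms stood on opposite sides of the vector control mean, yet EMX1-FL 1 was below EMX1-X1 1. Its log2 fold change was 0.29 ± 0.23 with EMX1-FL and -0.22 ± 0.23 with EMX1-X1, and the log2 difference between the isoforms was 0.51 ± 0.23. For that difference the unadjusted edgeR p = 0.0501, the adjusted p = 0.611 and the exact permutation p = 0.2. With the cluster as a covariate the difference was 0.33 ± 0.108 and passed an unadjusted p under 0.05, as 12.9% of all genes did in that fit, with an adjusted p = 0.243 (edgeR). It was 0.37 within cluster A, which held 1 EMX1-X1 library, and 0.27 within cluster B, which held 1 EMX1-FL library. The difference was above 0 in all 23 alternatives, which refit the same libraries and are not independent. It passed an unadjusted p under 0.05 in 12 of them, including DESeq2 and the 3 GC offsets added after the data had been seen. Another was the fit without EMX1-FL 1, where 6603 of 18574 genes passed. It did not pass with the replicate block, with only the 6 libraries compared or with limma. BBC3 in EMX1-X1 against the vector control also passed in 12 of 23, so this count does not set PMAIP1 apart.

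BID had 20.3, 24.9 and 33.6 CPM in the vector control, 35.7, 26.1 and 21.3 CPM in EMX1-FL and 22.7, 31.5 and 25.8 CPM in EMX1-X1. BCL2L11 was the steadiest of these genes, at 13.8, 12.9 and 13.8 CPM, then 12, 10.7 and 15.2 CPM, then 12.8, 14.7 and 12.5 CPM in the same order of groups. For both genes the groups overlapped, and the log2 fold changes lay between -0.10 and 0.08 in all 3 comparisons.

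**Figure D2:**
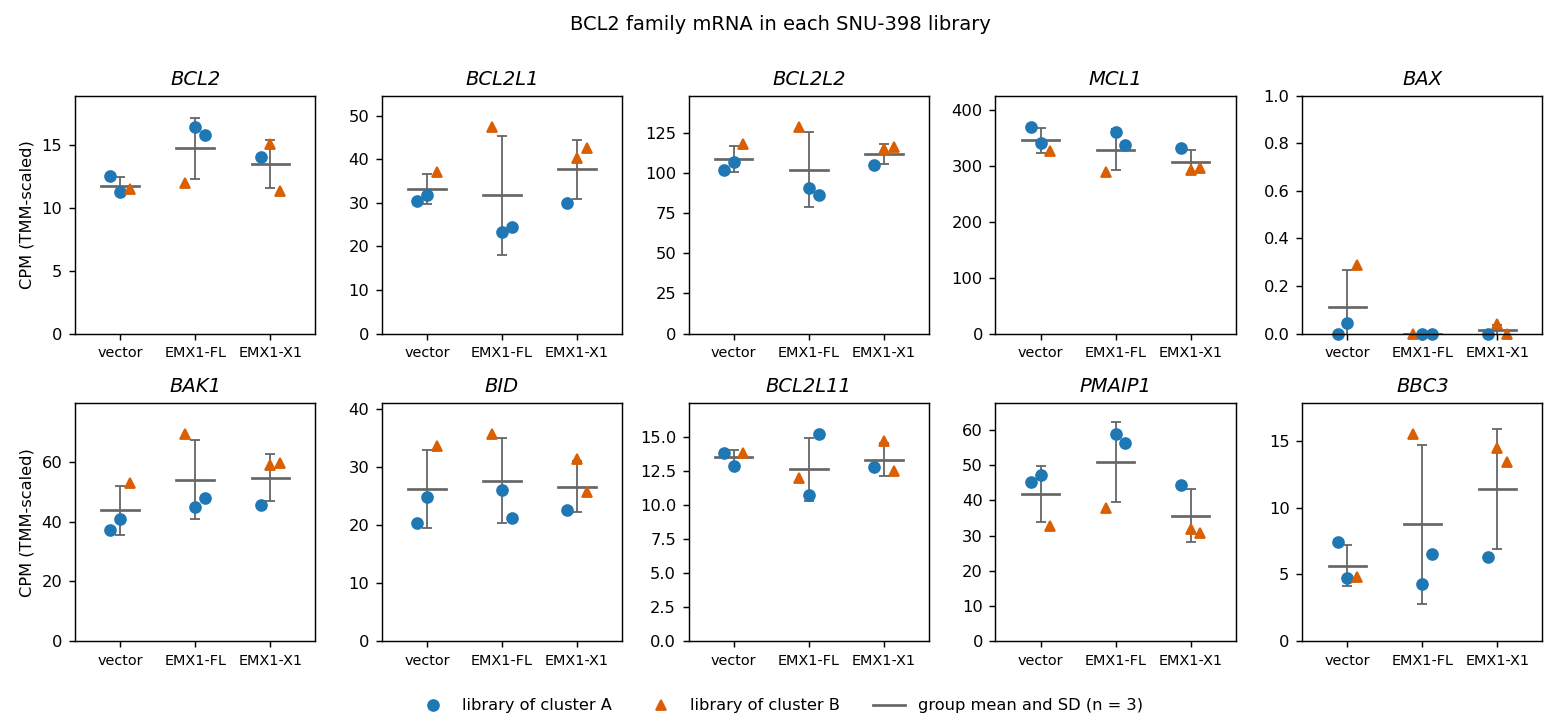
TMM-scaled CPM of each member in the 9 libraries, with 1 symbol per library (circles for cluster A, triangles for cluster B) and lines for the group mean and SD (n = 3); each panel has its own axis from 0. The groups overlap in every panel, and for BBC3 the 3 libraries at 13.4 to 15.5 CPM are triangles with an EMX1 construct.

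Several members followed the library clusters more closely than the groups. BCL2L1, BCL2L2 and BAK1 were higher in all 4 libraries of cluster B than in any of cluster A, by 0.58, 0.29 and 0.47 in mean log2 CPM. MCL1 and PMAIP1 were lower in all 4, with differences of -0.21 and -0.59. BBC3 (0.93), BID (0.45), BCL2L11 (0.03) and BCL2 (-0.16) overlapped between the clusters. The differences ran with the GC content of the transcripts. PMAIP1 had 43.6% GC, MCL1 45.7%, BCL2L11 46.8%, BID 51.6%, BCL2L1 and BCL2L2 56.2%, BAK1 58.7% and BBC3 64.5%. Over all genes tested the median difference was -0.40 for genes with 40% to 45% GC and 0.64 for genes with 60% to 65% GC. The clusters were drawn from the same libraries, so these differences carry no test, and the part of library preparation in them was not tested. The share of all genes that part the clusters in this way was not counted. The separation can therefore not be called particular to the members. Across the 9 libraries BCL2L1 and BCL2L2 had a Pearson r of 0.96 and MCL1 and BAK1 one of -0.94, as a description of libraries that share this split.

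**Figure D3:**
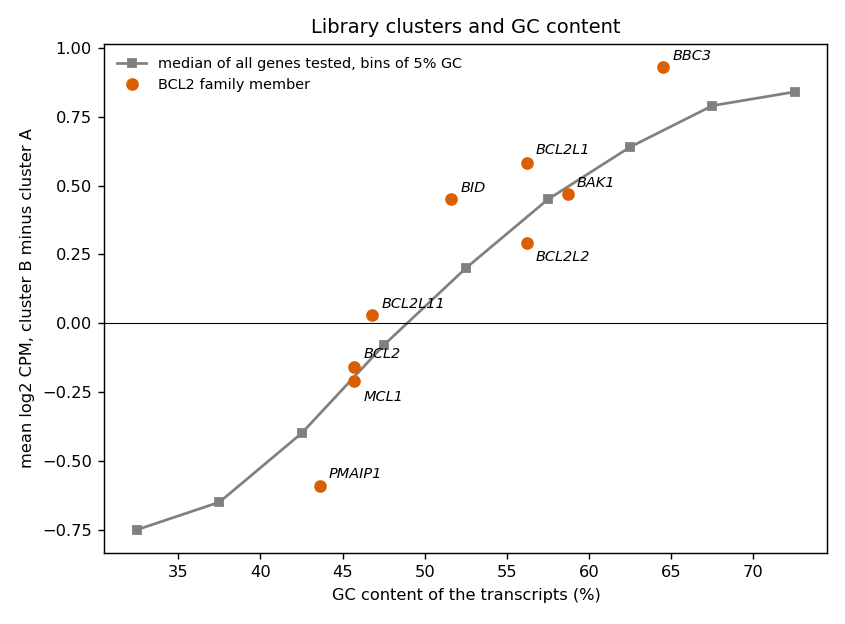
Mean log2 CPM of the 4 cluster B libraries minus that of the 5 cluster A libraries, against the GC content of the transcripts (%), for the 9 members tested (circles) and as the median of all genes tested in bins of 5% GC (line). Members rise with GC content as the line of all genes does, from PMAIP1 (-0.59 at 43.6% GC) to BBC3 (0.93 at 64.5% GC).

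Ratios between antagonists were compared per library without a test. The TPM ratio of PMAIP1 to its partner MCL1 was 0.239, 0.271 and 0.195 in vector control cells, 0.257, 0.318 and 0.326 with EMX1-FL and 0.262, 0.214 and 0.203 with EMX1-X1. EMX1-FL 2 and 3 were above every other library, and EMX1-FL 1 was not. The ratio of BAK1 to the sum of MCL1 and BCL2L1 was 0.223 ± 0.0504 (SD, n = 3) in vector control cells, 0.291 ± 0.0876 with EMX1-FL and 0.304 ± 0.0541 with EMX1-X1, and the ranges overlapped. With BAX near 0 counts, its ratio to BCL2 was at most 0.114 in any library.

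Over 4 other lists of pathway genes, 2 of 44 genes tested passed an unadjusted p under 0.05 in each comparison, or 4.55%, against 5.8%, 8.11% and 7.63% of all genes in EMX1-FL, EMX1-X1 and between the isoforms. Of 11 other BCL2 family genes, 7 were tested; in EMX1-FL none passed an unadjusted p under 0.05, and in EMX1-X1 BMF, a BH3-only gene, did. BMF was at 0.685, 0.305 and 0.701 CPM in the vector control, 0.532, 0.674 and 1.52 CPM in EMX1-FL and 1.62, 1.66 and 1.94 CPM in EMX1-X1, so that all EMX1-X1 libraries were above all others. Its log2 fold change in EMX1-X1 was 1.62 ± 0.48, with an unadjusted edgeR p = 0.00577, adjusted p = 0.486 and the smallest possible exact permutation p of 0.1. The value was 1.64 within cluster A, with 1 EMX1-X1 library, and 1.26 within cluster B, with 1 vector control library. The level was low in every library.

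Of 15 apoptosome, caspase and inhibitor genes, all tested, 1 passed in EMX1-FL. This was BIRC3 (cIAP2), an inhibitor of apoptosis that acts in death receptor signalling. BIRC3 was at 34.3, 37.4 and 20.6 CPM in the vector control, 42.7, 69.1 and 59.2 CPM in EMX1-FL and 37.6, 23.9 and 19.4 CPM in EMX1-X1. All EMX1-FL libraries were above all other libraries. The log2 fold change was 0.89 ± 0.30 against the vector control, with an unadjusted edgeR p = 0.0113, adjusted p = 0.568 and an exact permutation p = 0.1. In EMX1-X1 none of the 15 passed.

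Of 12 death receptor genes, 9 were tested, and FADD, the adaptor between death receptors and caspase-8, passed in EMX1-X1 with a log2 fold change of 1.03 ± 0.43, an adjusted p = 0.584 (edgeR) and an exact permutation p = 0.2. FADD was at 4.88, 4.01 and 8.04 CPM in the vector control, 14.6, 7.37 and 4.53 CPM in EMX1-FL and 6.66, 13.9 and 14.1 CPM in EMX1-X1, and the groups overlapped. Its highest libraries were EMX1-FL 1 and EMX1-X1 2 and 3, as for BBC3. Of 13 regulators of the family, all tested, HUWE1, a ubiquitin ligase that marks MCL1 protein for degradation, passed in EMX1-FL. HUWE1 was at 682, 625 and 634 CPM in the vector control, 490, 505 and 560 CPM in EMX1-FL and 671, 637 and 635 CPM in EMX1-X1. Every EMX1-FL library was below every other library in CPM, but in TPM EMX1-FL 3, at 125, was above vector control 3, at 119. The log2 fold change was -0.32 ± 0.13 (unadjusted edgeR p = 0.0337, adjusted p = 0.807, exact permutation p = 0.1). The value was -0.30 within cluster A and -0.37 within cluster B, where EMX1-FL and the vector control had 1 library each. Between the isoforms BIRC3 and HUWE1 passed, and no gene of the other BCL2 family or death receptor lists did. The median log2 fold changes of the 4 lists lay between -0.09 and 0.16 in EMX1-FL and between -0.11 and 0.40 in EMX1-X1.

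Markers of the cells moved beside these genes. Of 4 mesenchymal markers 3 passed an unadjusted p under 0.05 in EMX1-FL (FN1, CDH2 and ZEB1) and 2 in EMX1-X1 (FN1 and CDH2), all higher than the vector control, beside 5.8% and 8.11% of all genes. VIM did not pass, with log2 fold changes of 0.08 in EMX1-FL and -0.23 in EMX1-X1. In EMX1-FL, CDH2 was 0.87 within cluster A and -0.06 within cluster B, where each of these 2 groups had 1 library. ZEB1 was 1.37 and 0.27 in the same order. No marker reached an adjusted p under 0.05, the smallest being 0.216 for FN1 in EMX1-FL (edgeR). The fibronectin gene FN1 was at 161 to 175 CPM in the vector control, 227 to 277 CPM in EMX1-FL and 242 to 254 CPM in EMX1-X1. ALB, the hepatocyte marker tested, was higher and passed an unadjusted p under 0.05 in both isoforms. Its log2 fold changes, 1.46 in EMX1-FL and 1.11 in EMX1-X1, were the largest of the markers tested, but its level stayed at or below 2.45 CPM. The 2 epithelial markers tested, EPCAM and CDH1, were higher as well. Their log2 fold changes were 0.55 and 0.32 in EMX1-FL and 0.40 and 0.75 in EMX1-X1, where CDH1 passed. The part of these shifts in the values of the BCL2 family was not tested.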

How the data were processed

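RNA-seq of SNU-398 cells comprised 3 vector control, 3 EMX1-FL and 3 EMX1-X1 libraries. The authors trimmed reads with fastp and aligned them with STAR. The deposited counts are read pairs per gene; the file header names featureCounts 2.0.1 with Ensembl release 99, the submitters' processing notes name featureCounts 2.0.6 and hg38, and the methods name RSEM. The second deposited table holds log2(TPM + 1) values, which were recomputed from the counts and gene lengths with a largest difference of 5.0e-06. Depth was 21562703 to 25197970 read pairs per library, and intervals cover the spread between libraries only.

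Counts were fitted with edgeR 4.0.16 in R 4.3.3 (TMM factors, filterByExpr, quasi-likelihood F test, all 9 libraries, group as the only term), with Benjamini-Hochberg adjustment over the 18574 genes tested. The SE was taken from the log2 fold change and the F value. The script was tested on simulated counts. Alternatives used DESeq2 1.42.0, and limma 3.58.1 on the deposited log2 TPM values with a pseudocount of 1 or 0.1. No overlap means that all 3 CPM values of a group lie above or below the 3 of the other. GC content came from GENCODE transcripts, matched for 95.6% of the genes tested. Log2 values for clusters used CPM with a prior count of 2.

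The 10 members and the lists were chosen with earlier results of these data known. Named genes were all members, EMX1, the genes of the 4 other lists at an unadjusted p under 0.05 (at most 4 per list and comparison), and the 3 genes most correlated with the member of smallest p in EMX1-FL; the ferritin genes and the neighbours of BAX were added after their values were seen. Protein sequences were not used here, so a planned search for BH3 motifs was not run.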

Additional observations from a re-analysis of the deposited data

Results flagged for a closer look

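BIRC3 and HUWE1 differed between EMX1-FL and EMX1-X1 at an unadjusted p under 0.05 in the fit that tests the difference itself. BIRC3 was higher in EMX1-FL than in EMX1-X1 in all 3 libraries, with a log2 difference of 1.08 ± 0.30 (SE), an unadjusted edgeR p = 0.00358, adjusted p = 0.611 and an exact permutation p = 0.1, and the difference was 0.77 within cluster A and 0.98 within cluster B. HUWE1 was lower in EMX1-FL than in EMX1-X1 in all 3 libraries, with a log2 difference of -0.32 ± 0.13, an unadjusted edgeR p = 0.0331, adjusted p = 0.611 and an exact permutation p = 0.1, and it was -0.34 within cluster A and -0.38 within cluster B. No member of the BCL2 family itself met this mark, and groups of 3 libraries were not screened for single libraries that stand apart. The values within cluster A rest on 1 EMX1-X1 library and those within cluster B on 1 EMX1-FL library.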

How the results depend on the processing

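No member reached an adjusted p under 0.05 in any of the 23 alternatives, where the smallest adjusted p was 0.053. The EMX1 check kept its direction and its call in all of them, between 3.70 and 4.18 in EMX1-FL and between 4.33 and 4.76 in EMX1-X1 when single libraries were left out. When CPM without length replaced TPM, the ratios themselves changed (0.235 to 0.12 for PMAIP1 to MCL1 in the vector control), while the log2 differences of the ratios between each isoform and the vector control moved by less than 1 SD of the vector control.

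The number of members at an unadjusted p under 0.05 was less stable, and the cause of these changes was not tested. For EMX1-FL against the vector control it was 0 in the fit reported, 1 without the filter on low counts (BBC3, beside 4.63% of all genes), 2 with the cluster of libraries as a covariate (BAK1 and PMAIP1, beside 15.1% of all genes), 1 with an offset for GC content, alone, with the replicate block or with the cluster (BAK1 each time, beside 13.6%, 11.8% and 17.2% of all genes), and 0 to 3 with single libraries left out. For EMX1-X1 against the vector control it went from 1 to 0 when at least 10 counts were asked of every library, with the cluster covariate, with glmTreat against a fold of 1.2 and with each of the 3 GC offsets, beside 5.36% to 15% of all genes, and ran from 0 to 1 with single libraries left out; limma called BAK1 in place of BBC3. For EMX1-FL against EMX1-X1 it went from 0 to 1 (PMAIP1) with RLE factors, upper-quartile factors, DESeq2, no filter on low counts, at least 10 counts in every library and the cluster covariate, beside 7.49% to 12.9% of all genes, to 2 (BAK1 and PMAIP1) with each of the 3 GC offsets, beside 7.83% to 10.4%, and ran from 0 to 4 with single libraries left out. Where limma called BAK1, 9.44% and 9.5% of all genes passed with a pseudocount of 1 and 0.1. With single libraries left out, 783 to 3115 of 18574 genes passed in EMX1-FL, 624 to 3230 in EMX1-X1 and 360 to 6603 between the isoforms. The members without overlap in EMX1-X1 against the vector control went from 0 to 1 with RLE factors (MCL1) and to 1 on the deposited log2 values (BCL2L2). In the fit reported, 14.7% of all genes had no overlap in that comparison. The GC offsets were added after the data had been seen.

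Small fold changes turned their sign. In EMX1-FL against the vector control MCL1 became 0.02 with limma at either pseudocount. In EMX1-X1 against the vector control BID became -0.0015 with RLE factors and with DESeq2, -0.00016 with at least 10 counts in every library, -0.13 with the cluster covariate, and -0.06, -0.06 and -0.16 with the GC offset alone, with the block and with the cluster. In the same comparison BCL2L11 became 0.01 with library size alone, 0.07 and 0.08 with limma, and 0.01 and 0.02 with the GC offset alone and with the block. BCL2L1 became -0.02 with the cluster covariate and -0.03, -0.03 and -0.11 with the GC offsets in that order, and BCL2L2 became -0.05 and then -0.16, -0.16 and -0.14. Between EMX1-FL and EMX1-X1, BAK1 became 0.12 with the cluster covariate and 0.25, 0.25 and 0.26 with the GC offsets, BCL2L2 0.05, 0.05 and 0.03, MCL1 -0.01, -0.01 and -0.02, and BBC3 0.01 with the GC offset and the cluster.

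With single libraries left out, the log2 fold changes in EMX1-FL against the vector control ran from -0.47 to 0.10 for BCL2L1, -0.30 to 0.01 for BCL2L2, -0.17 to 0.02 for MCL1, -0.15 to 0.28 for BID and -0.07 to 0.93 for BBC3. In EMX1-X1 against the vector control they ran from -0.0012 to 0.09 for BCL2L2, -0.13 to 0.22 for BID and -0.09 to 0.02 for BCL2L11. Between the isoforms they ran from -0.24 to 0.09 for BAK1, -1.08 to -0.06 for BBC3, -0.17 to 0.21 for BID and -0.23 to 0.02 for BCL2L11.

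To see whether library numbers mark pairs, the group mean of each gene was subtracted from its log2 CPM, and the remainders were correlated between libraries. Same-numbered libraries had a mean correlation of -0.135 for EMX1-FL and the vector control, 0.11 for EMX1-X1 and the vector control and -0.352 for the isoforms. For libraries of different number it was 0.0743, -0.0596 and 0.164 in the same order. Remainders cancel out within a group, so these values largely follow from the same-numbered ones. The direction was not the same in all 3 pairs of groups, so whether the numbers mark pairs was not settled. With the replicate block alone, the members called were 0, 1 and 0 in the 3 comparisons, beside 718, 972 and 750 of all 18574 genes. Levels of 4.25 to 16.5 CPM, as for BBC3 and BCL2, and 3 libraries per group limit the precision, so that a member could differ by up to the bounds of its interval without a call.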
